A study of Mus musculus with 11 samples.

Results

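The nuclear genes for the mitochondrial respiratory chain were followed in mouse CD4 T cells that carried wild-type FoxP3, a mutant FoxP3 or an empty vector. Members were all probe sets (groups of array probes summarised to 1 value) annotated with exactly 1 gene symbol that begins with Nduf or Uqcr, or with Cox4, Cox5, Cox6, Cox7 or Cox8, or that is Sdha, Sdhb, Sdhc, Sdhd or Cyc1. This rule, which uses no measured value, gave 149 probe sets of 74 genes among the 45101 probe sets of the arrays. Another 10 probe sets carry a respiratory chain symbol together with other symbols and were left out. By complex, 16 probe sets (6 genes) belong to the core of complex I, 60 (28 genes) to its accessory subunits and 10 (8 genes) to its assembly factors. Complex II has 9 probe sets (4 genes), complex III 17 (9 genes), the common subunits of complex IV 26 (10 genes), and its tissue-restricted isoforms 9 (7 genes). Ndufa4 and its relative Ndufa4l2, with 1 probe set each, were kept apart. The names of the members therefore also bring in assembly factors and isoforms that are not subunits of the chain in every tissue.

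The cells were naive CD4+CD25-CD45RBhigh T cells sorted from the lymph nodes and the spleen of mice of the BALB/cA strain. They were stimulated with anti-CD3e at 0.5 µg/ml, IL-2 at 10 ng/ml and T cell-depleted spleen cells of the same strain that had received 20 Gy, and were spin-infected with retrovirus 24 h later. Cells with high green fluorescent protein were sorted on day 7. All 4 groups carry the MIGR1 vector: mock (vector alone, 3 arrays), WT (wild-type FoxP3, 3 arrays), A384T (FoxP3 with that substitution, 3 arrays) and R397W (FoxP3 with that substitution, 2 arrays). FoxP3 is the transcription factor of regulatory T cells, and both substitutions lie in its DNA-binding forkhead domain. The labels name no separate cultures or animals behind a group's arrays, nor do they give the animals' age or whether animals were pooled, and p-values therefore cover only the spread from array to array, which could be technical. Every cell was forced to express its vector by a retrovirus in culture, which sets these cells apart from regulatory T cells that arise in the animal.

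The respiratory chain sits in the inner mitochondrial membrane. Complex I oxidises NADH and complex II oxidises succinate, both pass electrons through ubiquinone to complex III, cytochrome c carries them to complex IV, and complexes I, III and IV pump the protons that drive ATP synthase. Most subunits are encoded in the nucleus, and the mitochondrial DNA encodes the rest, which the rule does not take in. Regulatory T cells are known for relying on oxidative phosphorylation more than activated conventional T cells, which favour glycolysis.

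Each value is a log2 signal relative to what the mock arrays read there (their median at that probe set), and 0 is the mock level. Levels are lost in this scale, so no member can be called abundant or absent, and neither markers of T cells nor those of other cells can be checked for presence. The array medians over all probe sets lay between -0.016 and 0.0019. The 1 probe set of Foxp3 ranged from -0.34 to 0.26 in mock, from -0.07 to 0.11 in WT, from 0.10 to 0.33 in A384T and from -0.39 to -0.19 in R397W. The range in mock overlaps that of each FoxP3 group, so this probe set does not separate mock from the rest, while both R397W arrays lay below all WT and A384T arrays; where its probes lie relative to the transduced sequence was not analysed here. Deviations from the group means correlated positively in every pair of arrays with the same number. The number was therefore also used as a block, that is, groups were compared within array numbers. The correlation was strongest for number 1 (r = 0.575 to 0.718). For A384T 2 it was 0.107 with mock 2 and 0.177 with WT 2, below its 0.283 with mock 3 and 0.276 with WT 3. With R397W 2 it was 0.447.

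With wild-type FoxP3, most respiratory chain probe sets lay slightly above mock, and few differences passed the test. The median difference between WT and mock was 0.13 over the 149 members and -0.01 over all 45037 probe sets tested. Of the members, 109 (73.2%) lay above mock, against 46.7% of all probe sets. The median of the members by array was 0.08, 0.12 and 0.11 in WT, 0.10, 0.08 and 0.10 in A384T and -0.01 and 0.02 in R397W, and 0 in each mock array. The WT and A384T medians thus all lay above those of the mock and R397W arrays, by a small amount. Centring each probe set on the mock arrays draws the mock medians towards 0, so they do not measure the spread among mock arrays. In limma with Benjamini-Hochberg adjustment over all probe sets, 1 member rose and 1 fell at an adjusted p under 0.05. Those 2 are 1.34% of the members, beside 2.66% of all probe sets (1.49% rose and 1.17% fell). Within array numbers 10 members rose and 1 fell, 7.38% against 7.63% of all probe sets, so the share called was no higher among the members than overall. The direction was uneven: 6.71% of members rose within array numbers against 3.98% of all probe sets, and 0.671% fell against 3.65%. Of the 10 probe sets that rose, 5 read Ndufs8 and 2 read Ndufv2, so this share rests on few genes. The WT arrays lay wholly above the mock arrays at 27 members (18.1%, against 7.41% of all probe sets) and wholly below at 5 (3.36%, against 7.69%). WT exceeded mock at all 3 array numbers for 86 members (57.7%, against 19.3% overall). The median standard error of the difference at a single probe set was 0.139.

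**Figure D1:**
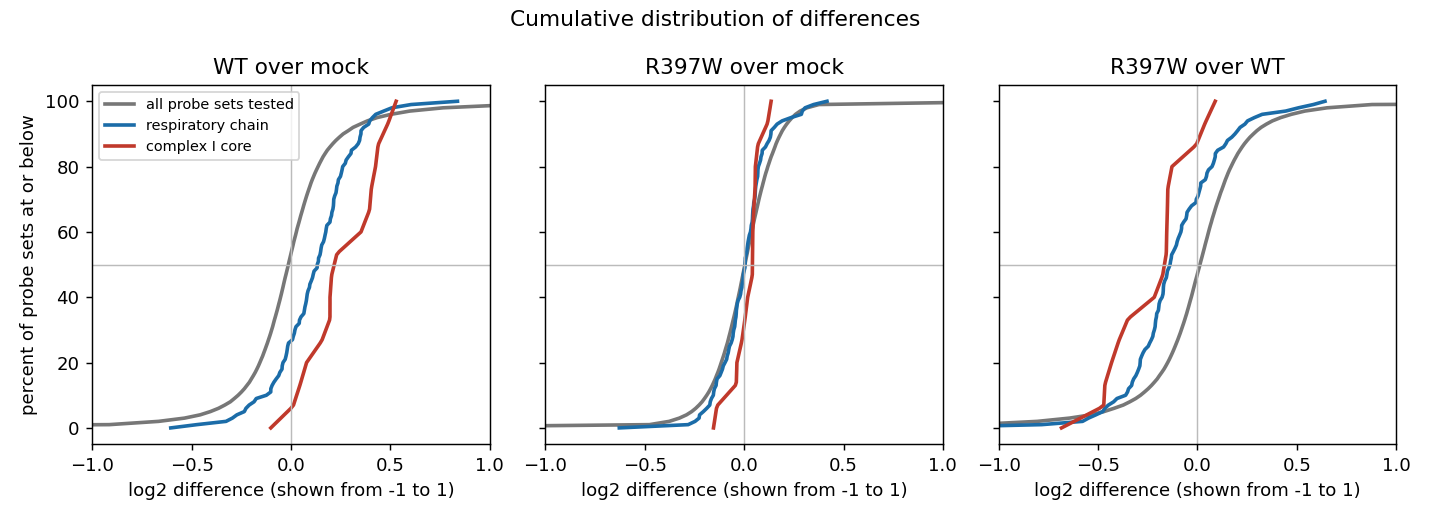
Cumulative distribution of log2 differences for WT over mock, R397W over mock and R397W over WT, with all 45037 probe sets in grey, the 149 respiratory chain probe sets in blue and the 16 complex I core probe sets in red. The x axis is cut at -1 and 1; the blue and red curves lie right of the grey one for WT over mock (medians 0.13, 0.22 and -0.01), close to it for R397W over mock (0.00, 0.04 and 0.00) and left of it for R397W over WT (-0.14, -0.17 and 0.01).

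The core subunits of complex I, which carry the flavin and the iron-sulfur clusters that move electrons from NADH to ubiquinone, had the highest median among complexes with more than 2 probe sets, at 0.22. Of their 16 probe sets, 15 lay above mock (93.8%, against 46.7% of all probe sets). At 9 the WT arrays lay wholly above the mock arrays (56.2%, against 7.41%). Within array numbers 7 of the 16 rose (43.8%, against 3.98%), 5 of Ndufs8 and 2 of Ndufv2. Without the block none of the 16 passed and 7 had an unadjusted p under 0.05, as had 11.3% of all probe sets. Ndufs8 fills 6 of the 16, so the median weighs this gene most. With probe sets averaged by gene, the core ran from -0.04 (Ndufs7) to 0.39 (Ndufs8). The accessory subunits ran from -0.16 (Ndufb10) to 0.46 (Ndufb6) in the same way. Ndufs8 encodes an iron-sulfur subunit near the ubiquinone site. Its probe set 1434579_x_at read 0.10, 0.00 and -0.07 in mock, 0.66, 0.47 and 0.37 in WT, 0.78, 0.39 and 0.42 in A384T, and 0.12 and -0.07 in R397W. Every WT and A384T array was above every mock and R397W array. The difference between WT and mock was 0.49 ± 0.13 (SE, 3 arrays each, 1.40-fold, adjusted p = 0.0907) and, within array numbers, 0.49 ± 0.09 (adjusted p = 0.00859). The 4 other called Ndufs8 probe sets gave 0.40 to 0.53, and the sixth, 1434212_at, gave 0.05 ± 0.11. When the probe sets of each gene were averaged, Ndufs8 was the only respiratory chain gene to pass without the block, at 0.39 ± 0.08 (adjusted p = 0.0151). The suffixes x_at and s_at mark, in the array maker's naming, probe sets whose probes can match more than 1 transcript, and the 6 Ndufs8 probe sets are repeated readings of 1 gene, not separate genes.

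Ndufv2, an iron-sulfur subunit of the NADH-oxidising tip, read -0.37, 0.01 and 0.00 in mock, 0.09, 0.38 and 0.37 in WT, 0.15, 0.16 and 0.30 in A384T, and -0.30 and -0.01 in R397W at 1428179_at. The lowest WT array was the one numbered 1, as in each other group, and it still exceeded all mock arrays. The difference between WT and mock was 0.40 ± 0.14 (adjusted p = 0.252) and passed within array numbers (± 0.10, adjusted p = 0.0343), as did 1452692_a_at (0.35 ± 0.09, adjusted p = 0.0427). The other core genes did not pass in either fit: Ndufv1, which binds NADH and flavin, lay 0.16 to 0.23 above mock at 3 probe sets. Ndufs3 lay 0.20 above mock, and Ndufs1, the largest core subunit, 0.08. Ndufs7 gave -0.10 and 0.01.

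Among the 60 accessory probe sets of complex I, which surround the core and stabilise it, the median was 0.17 and 45 lay above mock. Ndufb6, a subunit of the membrane arm, read -0.12, 0.00 and 0.08 in mock, 0.34, 0.42 and 0.44 in WT, 0.33, 0.47 and 0.18 in A384T, and -0.10 and 0.20 in R397W at 1434057_at. WT and A384T each stood apart from mock, while the R397W arrays overlapped those of mock and those of A384T. The difference between WT and mock was 0.41 ± 0.11 (adjusted p = 0.110) and passed within array numbers (± 0.10, adjusted p = 0.0366). Ndufa9, at the junction of both arms, gave 0.28 ± 0.15 (adjusted p = 0.549). Ndufab1, the mitochondrial acyl carrier protein, shows the spread within a gene: its 5 probe sets ran from -0.32 to 0.35, and at 1458678_at, the lowest, WT lay wholly below mock (± 0.10, adjusted p = 0.152). At Ndufb2 1442658_at WT also lay wholly below mock, at -0.31 ± 0.15 (adjusted p = 0.513).

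The 1 member that fell was also an accessory subunit. Ndufb8, a membrane arm subunit often used as a marker of assembled complex I, read -0.05, 0.00 and 0.06 in mock, -0.50, -0.38 and -0.53 in WT, -0.47, -0.47 and -0.37 in A384T, and 0.13 and -0.06 in R397W at 1458404_at. The WT and A384T arrays were all below the mock and R397W arrays. WT was lower than mock by -0.47 ± 0.09 (1.39-fold, adjusted p = 0.0223). Its other probe set, 1448198_a_at, had the opposite sign: 0.19, 0.00 and -0.01 in mock and 0.40, 0.32 and 0.22 in WT, a difference of 0.25 ± 0.12 (adjusted p = 0.513). Averaged over both, Ndufb8 gave -0.11 ± 0.08 (adjusted p = 0.665), so the arrays give no single direction for this gene.

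The assembly factors of complex I had a median of 0.08, and none of their 10 probe sets passed in either fit; none had an unadjusted p under 0.05 without the block. Ndufaf1, which helps to build the membrane arm, gave 0.18 ± 0.13, and Ndufaf7, an arginine methyltransferase that acts early in assembly, gave 0.35 ± 0.21 with WT wholly above mock.

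**Figure D2:**
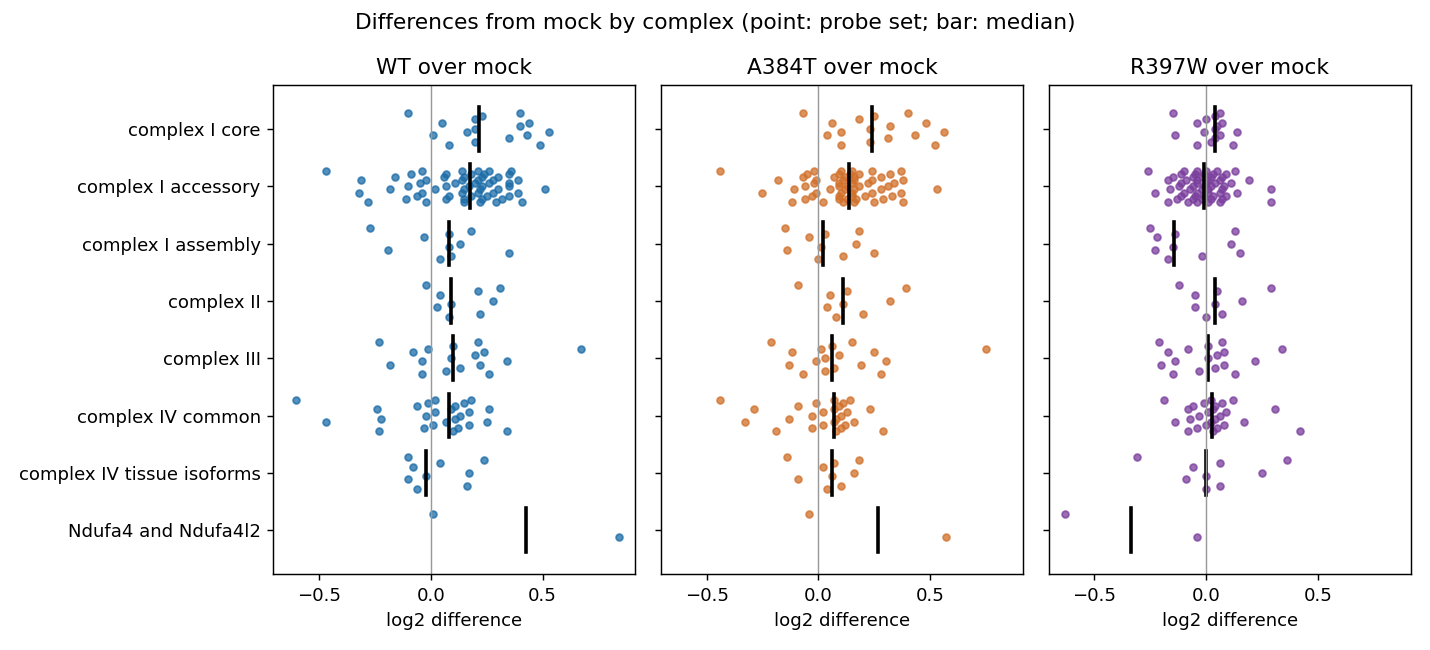
Log2 differences from mock for the 149 respiratory chain probe sets by complex, in WT, A384T and R397W; each point is a probe set and each bar the median of its complex. Complex I core points lie mostly right of 0 in WT and A384T (medians 0.22 and 0.24) and around 0 in R397W (0.04), and the tissue isoforms of complex IV lie around 0 in all 3 panels.

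The promoters of the complex I genes called within array numbers, and of Ndufa4 (described with complex IV), are shown because their probe sets moved with WT FoxP3 and differ in the motifs they hold. They come from RefSeq's table on GRCm38.p6, 300 bases around each gene start, printed 5′ to 3′ along the gene; all 5 genes lie on the minus strand. Ndufs8 is at chr19:3912725-3913024, Ndufv2 at chr17:66101510-66101809, Ndufb6 at chr4:40279372-40279671, Ndufa4 at chr6:11907401-11907700 and Ndufb8 at chr19:44555393-44555692. Capitals mark matches, on either strand, to 3 motifs of factors known at genes of the respiratory chain: NRF1 (the longest run of capitals at Ndufb6 and at Ndufb8), the ETS family that includes GABP (CCGGAAG) and YY1 (AANATGGC); no matches overlap.
Ndufs8: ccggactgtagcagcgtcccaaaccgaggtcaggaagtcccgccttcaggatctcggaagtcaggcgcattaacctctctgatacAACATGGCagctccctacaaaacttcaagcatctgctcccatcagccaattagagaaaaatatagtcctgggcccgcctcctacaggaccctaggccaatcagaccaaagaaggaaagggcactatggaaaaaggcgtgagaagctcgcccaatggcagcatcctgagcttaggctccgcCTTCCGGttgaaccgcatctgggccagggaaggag
Ndufv2: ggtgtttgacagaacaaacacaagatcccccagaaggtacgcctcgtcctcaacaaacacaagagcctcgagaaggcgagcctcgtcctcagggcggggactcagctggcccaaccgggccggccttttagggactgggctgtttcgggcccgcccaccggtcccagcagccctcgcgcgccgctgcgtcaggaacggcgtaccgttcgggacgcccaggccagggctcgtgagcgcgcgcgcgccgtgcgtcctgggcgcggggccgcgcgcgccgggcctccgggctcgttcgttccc
Ndufb6: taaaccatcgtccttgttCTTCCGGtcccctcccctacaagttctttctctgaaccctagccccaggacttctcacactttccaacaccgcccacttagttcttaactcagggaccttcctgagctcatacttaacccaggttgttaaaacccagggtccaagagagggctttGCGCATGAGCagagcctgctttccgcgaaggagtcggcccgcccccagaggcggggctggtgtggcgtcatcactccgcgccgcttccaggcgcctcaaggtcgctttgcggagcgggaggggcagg
Ndufa4: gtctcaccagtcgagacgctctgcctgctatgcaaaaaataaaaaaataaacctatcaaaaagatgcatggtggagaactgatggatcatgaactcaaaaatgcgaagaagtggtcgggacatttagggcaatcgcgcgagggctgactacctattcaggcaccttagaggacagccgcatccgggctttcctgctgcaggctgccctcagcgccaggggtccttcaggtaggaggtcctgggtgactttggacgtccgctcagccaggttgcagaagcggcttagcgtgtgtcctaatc
Ndufb8: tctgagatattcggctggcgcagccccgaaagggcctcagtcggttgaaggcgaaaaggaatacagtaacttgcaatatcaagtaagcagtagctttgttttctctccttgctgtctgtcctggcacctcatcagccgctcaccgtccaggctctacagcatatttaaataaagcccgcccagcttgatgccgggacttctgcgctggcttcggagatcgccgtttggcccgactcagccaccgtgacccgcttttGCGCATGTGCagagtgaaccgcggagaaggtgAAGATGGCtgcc
Ndufs8 holds an ETS and a YY1 match, Ndufb6 an NRF1 and an ETS match, Ndufb8 an NRF1 and a YY1 match, and Ndufv2 and Ndufa4 none in this window. Of the 74 genes, 59 matched a promoter in the table, with 61 promoters. NRF1 matches were in 26.2% of these, against 5.99% of all 32851 promoters, ETS matches in 21.3% against 8.86%, and YY1 matches in 21.3% against 6.05%. A match describes the letters and is not evidence of binding. The motifs were picked for factors known at such genes, so a higher share could be foreseen and says nothing about FoxP3. Uqcrq had no promoter in the table.

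In complex II, which links the citric acid cycle to the chain, 8 of 9 probe sets lay above mock in WT, with a median of 0.09, and none passed in either fit; 1 had an unadjusted p under 0.05. That was Sdhb, the iron-sulfur subunit, which read -0.11, 0.09 and 0.00 in mock, 0.20, 0.40 and 0.30 in WT, 0.35, 0.27 and 0.32 in A384T, and -0.15 and 0.04 in R397W. All WT and A384T arrays were above all mock and R397W arrays, and the difference between WT and mock was 0.31 ± 0.10 (adjusted p = 0.194; within array numbers 0.0888). The 4 probe sets of Sdha, the flavoprotein, gave -0.02 to 0.28. Those of the membrane anchors gave 0.04 and 0.22 (Sdhc) and 0.08 and 0.09 (Sdhd).

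Complex III held the 1 member that rose without the block. Uqcrq, a small subunit of the complex, read -0.38, 0.00 and 0.17 in mock, 0.57, 0.66 and 0.58 in WT, 0.70, 0.68 and 0.65 in A384T, and -0.44 and -0.11 in R397W at 1430326_s_at. The 6 arrays with WT or A384T FoxP3 lay close together and above all 5 others. WT exceeded mock by 0.67 ± 0.14 (1.60-fold, adjusted p = 0.0341). The 3 other Uqcrq probe sets gave -0.01, 0.13 and -0.04, none called, and the gene's average was 0.19 ± 0.09 (adjusted p = 0.415). The rise was thus seen at 1 of 4 probe sets. Over the 17 probe sets of the complex the median was 0.10 and 11 lay above mock: Uqcrc1, a core protein, gave 0.26, Uqcrfs1, the Rieske iron-sulfur protein, 0.07, and Cyc1, which carries the haem of cytochrome c1, -0.04, none of them called.

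In complex IV, which hands electrons to oxygen, the common subunits had a median of 0.08 with 17 of 26 above mock, and none passed in either fit or had an unadjusted p under 0.05 without the block. Cox4i1, the nuclear subunit that binds ATP, gave -0.06 ± 0.13. The 6 probe sets of Cox5b, a zinc-binding subunit, ran from -0.60 to 0.18, and the 3 of Cox5a from 0.11 to 0.26. The tissue-restricted isoforms had a median of -0.02 with 4 of 9 above mock. Cox7a1, the heart and muscle isoform, gave 0.24 ± 0.12 (adjusted p = 0.545), Cox8b, also of muscle, 0.16, the lung isoform Cox4i2 0.04, and Cox6a2, of heart and muscle, -0.06 and -0.10. Ndufa4, first counted to complex I and later placed in complex IV, read -1.98, 0.00 and 0.20 in mock, -0.85, 0.72 and 0.87 in WT, -1.23, 0.44 and 0.72 in A384T, and -2.41 and -0.04 in R397W. In every group the array numbered 1 was far below the rest, so the groups overlap, while WT exceeded mock by 1.12, 0.72 and 0.67 at numbers 1, 2 and 3. WT minus mock was 0.84 ± 0.80 (adjusted p = 0.841) without the block and 0.84 ± 0.14 (adjusted p = 0.00474) with it. Ndufa4l2, its hypoxia-induced relative, gave 0.01 ± 0.12.

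**Figure D3:**
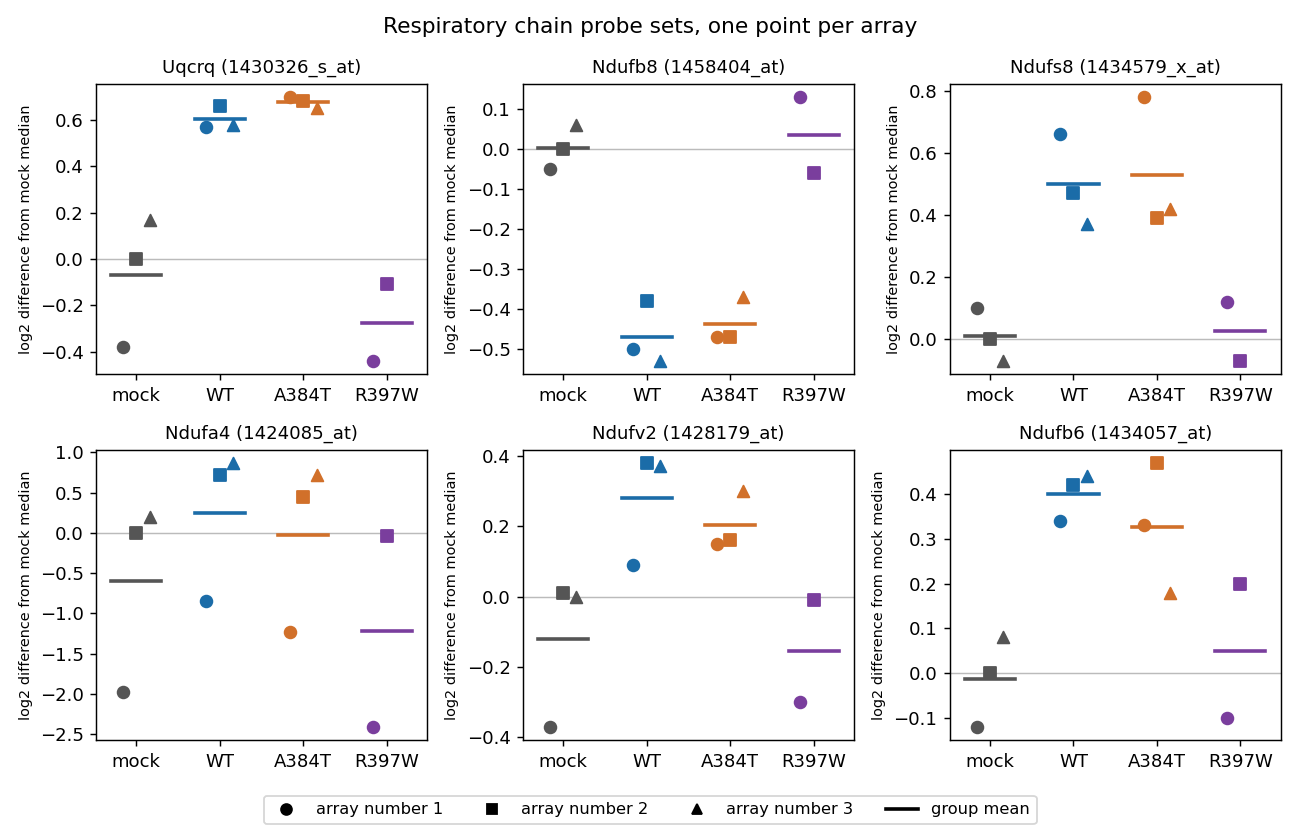
Log2 value relative to the mock median in each array for Uqcrq, Ndufb8, Ndufs8, Ndufa4, Ndufv2 and Ndufb6, by group; symbols give the array number and bars the group mean. WT and A384T lie apart from mock and R397W for Uqcrq, Ndufb8 and Ndufs8, and for Ndufa4 the arrays numbered 1 lie below the others in every group.

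Cells with A384T FoxP3, compared with the same mock arrays, had differences of similar size. Because both comparisons share the mock arrays, only their own values are given side by side. The members' median was 0.10, and 112 (75.2%) lay above mock, against 48.4% of all probe sets. Without the block Uqcrq rose (0.75 ± 0.14, 1.68-fold, adjusted p = 0.0238) and Ndufb8 1458404_at fell (-0.44 ± 0.09, adjusted p = 0.0369), 1.34% of members against 2.17% of all probe sets (1.25% higher, 0.917% lower). Within array numbers 7 rose and 1 fell, 5.37% against 7.33% overall (3.9% higher, 3.43% lower). The 7 were 5 probe sets of Ndufs8 (0.40 to 0.56), Uqcrq, and Ndufa4 (0.57 ± 0.14, adjusted p = 0.0382; ± 0.80 without the block). The A384T arrays lay wholly above mock at 23 members (15.4%, against 7.34% overall) and wholly below at 4 (2.68%, against 6.95%). The core of complex I had a median of 0.24 with 15 of 16 above mock, its accessory subunits 0.14, complex II 0.11, complex III 0.06 and the common subunits of complex IV 0.07. Ndufb6 1434057_at (0.34 ± 0.11) and Ndufv2 1428179_at (0.32 ± 0.14) did not pass in either fit. Averaged over its probe sets, Ndufs8 gave 0.41 ± 0.08 (adjusted p = 0.0129). At Ndufb4, an accessory subunit, A384T lay wholly below mock (-0.25 ± 0.10, adjusted p = 0.385).

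Between A384T and WT, no respiratory chain probe set was called by limma in either fit, beside 0.102% of all probe sets without the block (0.0444% higher, 0.0577% lower) and 0.515% with it (0.246% higher, 0.269% lower). An unadjusted p under 0.05 was reached by 1 member (0.671%, against 4.1% of all probe sets) and, within array numbers, by 4 (2.68%, against 7.94%). The differences ran from -0.38 to 0.34 with a median of 0.01, and the core of complex I from -0.12 to 0.09. Uqcrq 1430326_s_at differed by 0.07 ± 0.14, Ndufs8 1434579_x_at by 0.03 ± 0.13 and Ndufb8 1458404_at by 0.03 ± 0.09. Groups did not overlap at 4 members in 1 direction and 2 in the other (2.68% and 1.34%, against 3.97% and 3.49% overall). These include Cox8c 1443789_x_at (0.26), Ndufaf3 (0.16), Cox7a2l 1421772_a_at (0.13), Sdhc 1448630_a_at (-0.16) and Cox5a 1448153_at (-0.12). A test that is not passed does not show that both proteins act alike.

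No difference from mock was detected in cells with R397W FoxP3. The median difference of the members was 0.00, and 77 of 149 (51.7%, against 51.2% of all probe sets) lay above mock. Limma called 0 members and 0 of all 45037 probe sets in either fit (0%). An unadjusted p under 0.05 was reached by 2 members (1.34%, against 1.84%) and by 3 within array numbers (2.01%, against 3.74%). R397W lay wholly above mock at 6 members (4.03%, against 6.42% overall) and wholly below at 1 (0.671%, against 5.48%). The first include Cox5b 1448514_at (0.42 ± 0.16), Cox8b (0.36 ± 0.15) and Uqcrq 1437134_at (0.34 ± 0.19), and the other was Ndufab1 1458678_at (-0.17 ± 0.11). Uqcrq 1430326_s_at gave -0.20 ± 0.16 and Ndufb8 1458404_at 0.03 ± 0.10. With 2 arrays, R397W had a larger standard error than the other groups (median 0.155 against a group of 3).

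Set against WT, the R397W arrays were lower at most members. The median was -0.14 (-0.12 within array numbers) against 0.01 for all probe sets, and 105 of 149 lay below WT. The share above WT was 29.5%, against 52.9% of all probe sets. Without the block 1 member rose and 1 fell, 1.34% against 1.75% of all probe sets (0.759% higher, 0.99% lower). Within array numbers 2 rose and 6 fell, 5.37% against 5.78% overall (2.71% higher, 3.07% lower). Uqcrq 1430326_s_at fell by 0.88 ± 0.16 on the log2 scale (1.83-fold, adjusted p = 0.0218), and Ndufb8 1458404_at rose by 0.51 ± 0.10 (adjusted p = 0.0364). The members called only with the block were 4 probe sets of Ndufs8 (-0.45 to -0.68), Ndufa4 (-1.11 ± 0.17, adjusted p = 0.00292) and Cox5b 1448514_at (0.57 ± 0.14, adjusted p = 0.0397). Ndufa4 gave -1.47 ± 0.90 without the block, where the arrays numbered 1 weigh more in R397W, which has none numbered 3. R397W lay wholly below WT at 34 members (22.8%, against 10.4% overall) and wholly above at 8 (5.37%, against 12.9%). The former include 7 of the 16 core probe sets of complex I and 16 of the 60 accessory ones. They also include Ndufaf7 (-0.57 ± 0.24, adjusted p = 0.429), while Cox7c 1459885_s_at lay wholly above (0.53 ± 0.30, adjusted p = 0.670).

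R397W and A384T, compared directly, gave a similar picture, with the R397W arrays shared between both comparisons. The median was -0.12 against 0.01 for all probe sets, and 103 of 149 lay below A384T. The share above A384T was 30.9%, against 51.8% of all probe sets. Without the block only Uqcrq was called (-0.95 ± 0.16, 1.93-fold, adjusted p = 0.0165), 0.671% of members against 1.47% of all probe sets (0.615% higher, 0.853% lower). Within array numbers 1 rose and 7 fell, 5.37% against 5.7% overall (2.64% higher, 3.07% lower). Ndufb8 1458404_at rose (0.48 ± 0.11, adjusted p = 0.0338). The falls were Uqcrq, 4 probe sets of Ndufs8 (-0.44 to -0.72), Ndufa4 (-0.84 ± 0.17, adjusted p = 0.0146) and Ndufb7 1448331_at (-0.49 ± 0.12, adjusted p = 0.0348), a membrane arm subunit. R397W lay wholly below A384T at 28 members (18.8%, against 10.4% overall) and wholly above at 6 (4.03%, against 12.2%). The widest gaps outside the called members were at Ndufs4 1418117_at (-0.57 ± 0.34), an accessory subunit at the NADH-oxidising arm, and at Cox7c 1459885_s_at (0.63 ± 0.30).

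**Figure D4:**
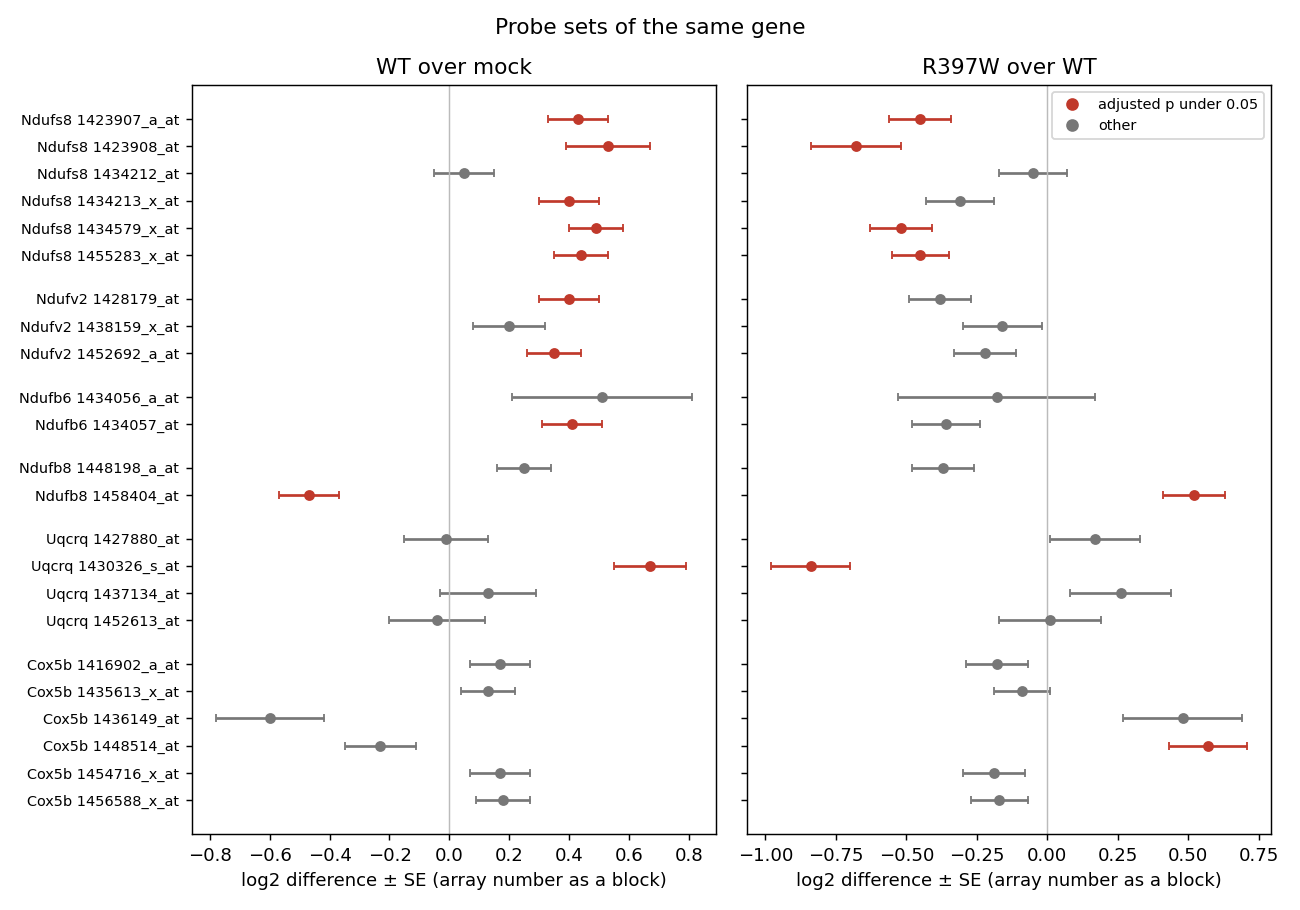
Log2 difference ± SE with array number as a block for every probe set of Ndufs8, Ndufv2, Ndufb6, Ndufb8, Uqcrq and Cox5b, for WT over mock and R397W over WT; red marks an adjusted p under 0.05. Of 6 Ndufs8 probe sets 5 are red on the left, whereas Uqcrq and Ndufb8 have 1 red probe set each, for Ndufb8 with the opposite sign to its other one.

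Probe sets of a gene often differed in sign. In WT over mock, 26 of the 41 genes with several probe sets had them all on the same side of 0, and 15 did not. Counted by gene, 46 of 74 had all probe sets above mock and 13 all below. In R397W over mock, 20 genes were wholly above and 27 wholly below. In WT over mock genes and probe sets thus both lie mostly above mock, whereas in R397W over mock more genes lie wholly below, beside 77 of 149 probe sets above.

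The calls of Uqcrq and Ndufb8 without the block changed with the processing. With quantile normalization of the deposited values or with only the 2 groups in the fit, neither passed in any comparison (adjusted p for WT over mock 0.0979 to 0.233 for Uqcrq and 0.0662 to 0.135 for Ndufb8). Leaving out the arrays numbered 1 leaves 1 array in R397W and 2 in each other group. That fit has too few arrays to show whether the calls depend on those numbered 1. Where an R397W array is left out below, 1 also remains in that group. In WT over mock, leaving out 1 array ended the call of Uqcrq for 7 of 11 arrays (mock 1 and 2, WT 1, 2 and 3, A384T 2 and 3; adjusted p up to 0.127). It ended that of Ndufb8 for 5 (mock 1, 2 and 3, WT 1 and 3; up to 0.094). In A384T over mock it ended the call of Uqcrq without mock 1 or 2 or any A384T array (up to 0.0844), and that of Ndufb8 without any mock or A384T array, WT 1 or WT 3 (up to 0.128). In R397W over WT it ended the call of Uqcrq without any WT or R397W array (up to 0.211) and that of Ndufb8 without any of the 11 (up to 0.286). In R397W over A384T it ended that of Uqcrq without A384T 1 or 2 or R397W 1 (up to 0.18).

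Other genes of mitochondrial energy metabolism were read from lists of neighbouring functions. For scale, 1.49% of all probe sets rose and 1.17% fell in WT over mock without the block, and 3.98% and 3.65% with it. An unadjusted p under 0.05 was reached by 11.3% without the block. Of the 31 probe sets of ATP synthase, which uses the proton gradient, none passed in WT over mock in either fit, 2 had an unadjusted p under 0.05, and the median was 0.07. Of these 31, 74.2% lay above mock and 58.1% exceeded it at all 3 array numbers, beside 73.2% and 57.7% of the members. The share above mock was 73.1% for cytochrome c and coenzyme Q synthesis, 69.4% for the citric acid cycle and 66.7% for the mitochondrial ribosome. It was 63.4% for the assembly factors and 34.2% for the biogenesis regulators. A slight rise was thus not particular to the respiratory chain. Among the 41 probe sets for assembly factors of complexes II, III and IV, 1 rose and 1 fell without the block. Sdhaf1, which helps to fit iron-sulfur clusters into Sdhb, read 0.00, -0.05 and 0.01 in mock, 1.70, 1.80 and 1.65 in WT, 1.68, 1.65 and 1.35 in A384T, and -0.01 and -0.01 in R397W. No mock or R397W array came near the WT and A384T arrays: WT exceeded mock by 1.73 ± 0.10 (adjusted p = 3.2e-05), A384T by 1.57 ± 0.10 (adjusted p = 7.59e-05), and R397W was below WT by -1.73 ± 0.12 (adjusted p = 8.26e-05). The difference between WT and mock is wider than that of any of the 149 members. Cox10, which acts in the synthesis of haem A for complex IV, fell (-0.47 ± 0.10, adjusted p = 0.0328). Within array numbers 1 rose and 3 fell, among them Ttc19, a complex III factor (-0.55 ± 0.11, adjusted p = 0.0117). Of the 156 probe sets of the mitochondrial ribosome, which translates the subunits encoded in mitochondrial DNA, 4 rose and none fell in WT over mock without the block. They were 3 of Mrpl52 (0.94 to 1.02) and 1 of Mrpl11 (0.41 ± 0.09, adjusted p = 0.0392). Within array numbers 8 rose and 1 fell. In both fits the share of ribosome probe sets called was no higher than that of all probe sets. The calls gained include Mrps22 (0.49 ± 0.09), Mrpl1 (0.45 ± 0.10) and Mrpl42 (0.41 ± 0.10), which rose, and Mrps26 (-0.38 ± 0.09, adjusted p = 0.0211), which fell. Of 38 for regulators of mitochondrial biogenesis, Polg2, of the mitochondrial DNA polymerase, rose (0.74 ± 0.17, adjusted p = 0.0488) and Yy1 fell (-0.55 ± 0.12, adjusted p = 0.0433) without the block. The median of this list was -0.09, with 25 of 38 below mock, and within array numbers 1 rose and 2 fell, among them Ppargc1b, a coactivator of mitochondrial genes (-0.49 ± 0.10, adjusted p = 0.00969). Of 26 for cytochrome c and coenzyme Q synthesis, none passed and 3 had an unadjusted p under 0.05; Coq7 rose within array numbers (0.55 ± 0.12, adjusted p = 0.0186). Of 36 for the citric acid cycle and pyruvate dehydrogenase, none passed, 5 had an unadjusted p under 0.05, and 1, of Ogdh, fell within array numbers (-0.63 ± 0.14, adjusted p = 0.0222).

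Glycolysis and proliferation moved with the same groups. The median of 30 glycolysis probe sets was -0.61 in WT over mock and -0.66 in A384T over mock. None passed without the block, where 8 and 4 had an unadjusted p under 0.05, and 10 and 9 fell within array numbers, among them Aldoc (-1.25 ± 0.19 in WT, adjusted p = 0.00215), an aldolase. Of all probe sets, 3.65% and 3.43% fell within array numbers, and 11.3% and 11.6% had an unadjusted p under 0.05 without the block. The median of 42 probe sets of DNA replication and mitosis was 0.31 and 0.25. Of these, 2 rose in WT without the block, both of Mcm5, part of the replicative helicase, and 11 rose with it. The shares of all probe sets that rose in these 2 fits were 1.49% and 3.98%. By array, the glycolysis median ran from -0.83 to 0.39 in mock, -1.08 to -0.48 in WT, -1.03 to -0.58 in A384T and -0.86 to 0.20 in R397W. That of replication and mitosis ran from 0.00 to 0.01, 0.11 to 0.76, 0.06 to 0.56 and 0.01 to 0.10. The centring draws the mock medians towards 0, so their narrow range here does not measure the spread among mock arrays. Their part in the respiratory chain differences was not tested. Of 7 probe sets of T cell markers in WT over mock, 1 of Cd2 rose (0.62 ± 0.10, adjusted p = 0.00834) and 1 of Cd5 fell (-0.47 ± 0.10, adjusted p = 0.0416) without the block. Within array numbers 1 rose and 2 fell, among them Cd4, a marker the cells were sorted on (-0.40 ± 0.09, adjusted p = 0.0186). None of 4 for B cells, 7 for CD8 and NK cells or 2 for erythroid cells passed in WT over mock or A384T over mock in either fit, nor had any an unadjusted p under 0.05 without the block. Among 8 for macrophages and granulocytes, none passed in WT over mock, 1 had an unadjusted p under 0.05, and Adgre1 fell in A384T over mock (-1.13 ± 0.19, adjusted p = 0.0131). The median of these 8 by array lay between -0.16 and 0.03. In such bulk samples a smaller share of a cell type and less RNA per cell cannot be told apart, and the part of other cells in the member differences was not tested.

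More members were called between array numbers than between groups, but these tests differ in precision. The comparison of numbers draws on the arrays of all 4 groups at once, whereas a group comparison sets at most 3 arrays against 3. In the comparison of number 1 with numbers 2 and 3, within groups, 15 members were higher and 31 lower at an adjusted p under 0.05, 30.9% against 17.5% of all probe sets (8.34% higher, 9.19% lower). The array numbered 1 was the lowest of its group in all 4 groups at 39 members (26.2%, against 10.2% overall) and the highest at 25 (16.8%, against 10.2%). Ndufa4 was lower by -1.96 ± 0.11 (adjusted p = 2.85e-06), with -2.07 in mock, -1.65 in WT, -1.81 in A384T and -2.37 in R397W. Cox8a 1416112_at (-0.77 ± 0.08), Sdha 1433293_at (-0.76 ± 0.11), Cox6a1 1417418_s_at (-0.72 ± 0.07), Uqcrh 1453229_s_at (-0.72 ± 0.08) and Ndufb7 1448331_at (-0.67 ± 0.08) were also lower. Cox5b 1436149_at was higher by 1.22 ± 0.14 (adjusted p = 0.000247), Uqcrc2 1428631_a_at by 0.57 ± 0.07 and Ndufs1 by 0.40 ± 0.07. Other probe sets of the same genes need not follow: Sdha 1433293_at was called lower, whereas none of the other 8 probe sets of complex II was called. Of the 30 glycolysis probe sets, 21 were lower with number 1, and of the 42 for replication and mitosis 16 were higher. What the number stands for is not given in the labels, and its cause was not tested.

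**Figure D5:**
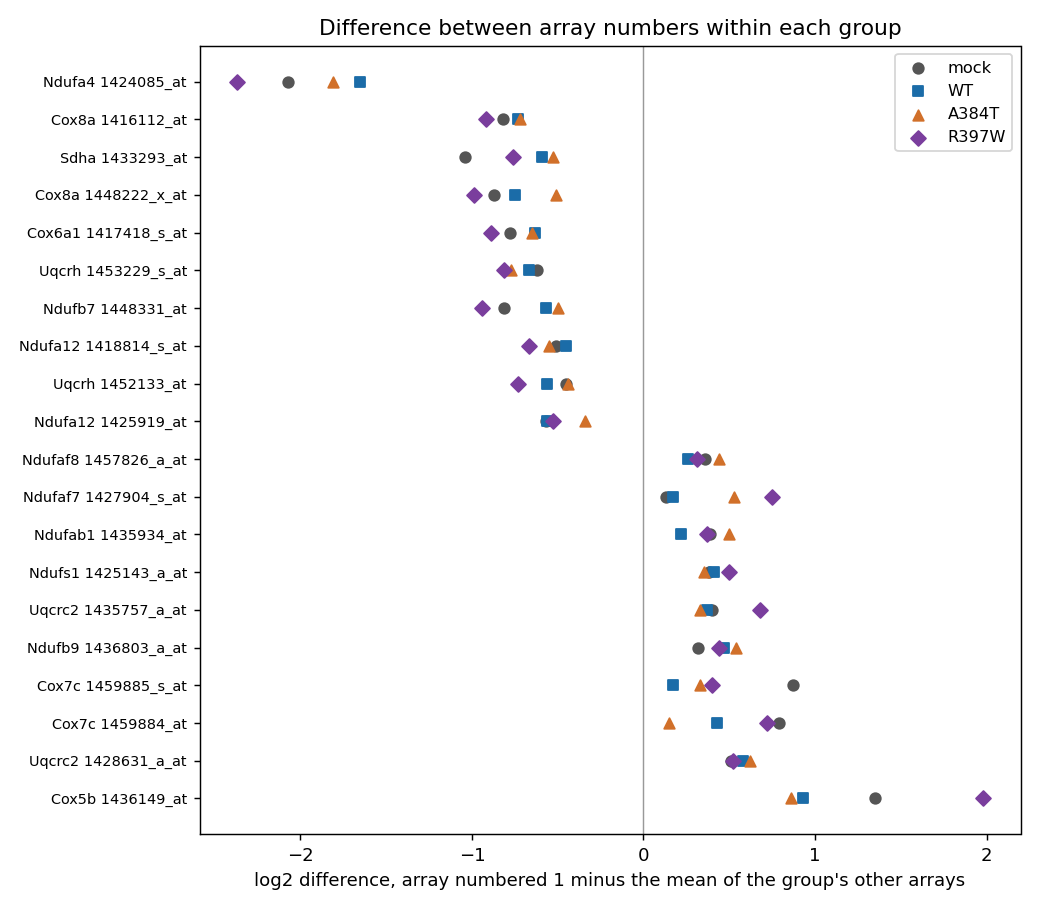
Log2 difference of the array numbered 1 from the mean of its group's other arrays, for the 10 lowest and 10 highest respiratory chain probe sets; symbols give the group. For each of the 20 probe sets all 4 groups lie on the same side of 0, with Ndufa4 between -2.37 and -1.65 and Cox5b 1436149_at between 0.86 and 1.98.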

How the data were processed

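RNA from 11 samples was measured on 11 Affymetrix arrays, 1 per sample, in 4 groups taken from the sample titles. The deposited values were made by RMA (no version named), per the submitters' processing notes. Every one of the 45101 probe sets has a median of 0 over the 3 mock arrays, that is, the table was centred on mock. No source used here states the centring or the log base; the deposited values were read as log2, the base RMA uses. Levels are lost, so no filter on low values was possible and all 149 members were tested. The number of arrays limits the precision.

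Symbols came from the platform annotation: of 45037 probe sets left after 64 controls, 34945 have 1 symbol (18193 genes), 932 several and 9160 none listed. All 149 members matched a RefSeq gene (GRCm38.p6), with 0 symbols changed. Each probe set was fitted with limma 3.58.1 (R 4.3.3) as 1 mean per group over all 11 arrays (7 residual degrees of freedom) and tested with eBayes and Benjamini-Hochberg adjustment over 45037 probe sets. A call is an adjusted p under 0.05. Python 3.11.15, pandas 2.3.3 and matplotlib 3.10.9 made tables and figures. The fits were tested on simulated data, in which differences between array numbers were added only for the blocked fit. The fit without the block was not tested with such differences present.

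Titles give arrays of different groups the same numbers, whose meaning they do not state. Deviations from the group means correlated at r = 0.107 to 0.718 (median 0.496) over all 15 pairs with the same number and at -0.695 to 0.344 over 30 others, so numbers were taken to pair the samples. Deviations cancel out within a group, and those of R397W 1 and R397W 2 mirror each other. This draws pairs with different numbers towards negative values. Blocked results are given where they change a call of a member; for the other lists, blocked counts and a few genes are given. The comparison of array numbers was chosen after seeing the data.

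Members, lists and motifs were chosen with earlier results of these data known. Named are members called in any comparison, the 5 largest called changes each way with the block, the 3 widest gaps each way between groups that do not overlap, a fixed set of subunits, genes with a called probe set and mixed signs, and up to 4 called genes per other list; the text names part of these. Proteins were not analysed here. Alternatives were other probe set summaries, normalizations, sample sets and priors, and leaving out each array.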

Additional observations from a re-analysis of the deposited data

Results flagged for a closer look

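Ndufb8 probe set 1458404_at is listed here because R397W and WT FoxP3 differed in it by a direct test between both groups (0.51 ± 0.10, higher in R397W, limma adjusted p = 0.0364); all WT arrays lay below all mock arrays, and the R397W arrays were on both sides of 0.

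Uqcrq probe set 1430326_s_at is listed because R397W differed from WT by -0.88 ± 0.16 (adjusted p = 0.0218) and from A384T by -0.95 ± 0.16 (adjusted p = 0.0165), again by direct tests. Both R397W arrays were below all 6 WT and A384T arrays.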

How the results depend on the processing

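With the array number as a replicate block, 11 members were called between WT and mock, and 8 each between A384T and mock, R397W and WT, and R397W and A384T, against 2, 2, 2 and 1 without it. Among all probe sets the block raised the share called from 2.66%, 2.17%, 1.75% and 1.47% to 7.63%, 7.33%, 5.78% and 5.7%. The members' share with it was no higher, at 7.38% in the first and 5.37% in each of the other 3. The block changed no call of a member between R397W and mock or between A384T and WT. When all probe sets of a gene were averaged, 1 gene was called in each of these 4 comparisons. Quantile normalization and only the 2 groups compared each gave 0 calls in these 4 comparisons. Leaving out the arrays numbered 1 leaves 1 array in R397W and 2 in each other group, too few to judge the calls. Leaving out 1 array gave 0 to 3 calls between WT and mock (3 without A384T 1), 0 to 2 in each of the other 3, and 0 in both remaining comparisons. Ndufa4, which was not called between A384T and mock without the block (0.57), ranged from -0.12 to 1.17 when 1 array was left out, with the sign turned only without mock 1 (adjusted p = 0.981); the cause was not tested. The number of arrays, 2 in R397W, limits what could be called.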
